A study of Mus musculus with 4 samples.

Results

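Gpnmb, Spp1, Apoe, Trem2, Lpl, Fabp5, Cd9, Lgals3, Thbs1 and Ctsb are genes that macrophages which take up and break down lipid often express together, and their RNA was examined here in every cell class of mouse HGG-MYCN. They are 10 of the 21861 features counted in each library, and all 10 were found. They were chosen by their level in Myeloid cells against other cells and by their difference between P43 and P70, with values from these libraries already seen, so both patterns are given as a description without a test. The cells came from brain tumors of 4 hGFAP-cre::TP53Fl/Fl::lsl-MYCN mice, in which the human GFAP promoter drives Cre in neural precursor cells, Trp53 is lost and a transgene with human MYCN and firefly luciferase (FLUC) is switched on. Mouse 4 and mouse 5 were harvested at 43 days (P43), mouse 6 and mouse 7 at 70 days (P70). All animals carried the same alleles, none was treated, and no tumor-free brain was sequenced. As this promoter is not known to be active in the blood lineage, the Cre is a model of tumor cells and not of macrophages. Tumors were dissociated, red blood cells were lysed, cells were frozen, and dead cells were sorted out before 10x Genomics 3′ sequencing with 1 library per mouse.

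Macrophages in lipid-rich or injured tissue engulf myelin, dying cells and lipoproteins, digest them in lysosomes and store or export the lipid. TREM2 is a surface receptor that senses lipids and lipoproteins, APOE carries cholesterol and phospholipid out of the cell, and LPL splits triglycerides. FABP5 ferries fatty acids inside the cell, cathepsin B and GPNMB work in or on the lysosome, and CD9 is a tetraspanin of the plasma membrane. Osteopontin (encoded by Spp1), galectin-3 (Lgals3) and thrombospondin-1 (Thbs1) are secreted proteins that bind matrix, glycans and cell surface receptors. In brain tumors such macrophages can derive from blood monocytes or from resident microglia.

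The libraries held between 13106786 and 40621958 unique molecular identifiers (UMIs, each a counted RNA molecule). After filtering, 10975 cells remained, with a median of 1419 to 10450 UMIs per cell and mouse. They fell into 17 classes, a few of which were divided further, and no pair of libraries shared more than 3 cell barcodes. In non-malignant cells, RNA of 4 Y chromosome genes reached 219.6 CPM in the P43 library labelled female (mouse 4) and 0.570 CPM in the P43 library labelled male (mouse 5), so that sex was not used. CPM are the UMIs of a gene summed over the cells of a class in 1 mouse, scaled to the same total for every class and mouse. The members were left out of the genes on which the cells were clustered.

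The Myeloid class held 1050 cells, with 53, 63, 788 and 146 cells from mice 4 to 7. All 11 genes of its marker list were detected in each mouse, with a summed level of 7481 to 12947 CPM. They made up 1.60%, 4.33%, 28.9% and 4.21% of the kept cells, and mouse 6 therefore contributes most of them. Median depth per Myeloid cell was 3385, 7615, 5377.5 and 2319.5 UMIs in mice 4 to 7. Markers of macrophages (14 genes) summed to between 14335 and 21679 CPM in these cells, and markers of microglia (10 genes) to between 195 and 948 CPM. Lyz2 alone supplied 15481, 11921, 7919 and 10889 CPM of the macrophage sums in mice 4 to 7. When cells were divided by which of these lists had more UMIs, 6, 1, 1 and 2 cells of mice 4 to 7 leaned to microglia. These were too few for the planned comparison of members between microglia-like and macrophage-like cells. The division used the same lists, in which Lyz2 weighs most, and is no count of microglia.

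Short promoter stretches of Spp1 and Trem2 are shown because these were the only members with one of the searched motifs just before the start of the gene. RefSeq windows of the 250 bases before the start were at hand for 6 members (Gpnmb, Spp1, Apoe, Trem2, Cd9 and Lgals3). The motifs, read on both strands and not overlapping with each other, were GAGGAAGT of the myeloid factor PU.1, TGANTCA of AP-1, and CACGTG, the E-box within the element that lysosomal gene regulators bind. They occurred in 2.44%, 6.75% and 6.02% of 32851 such windows of the mouse genome. Capitals mark the motif, and both sequences are given 5′ to 3′ on the plus strand of GRCm38.
Spp1, chr5:104434973-104435030: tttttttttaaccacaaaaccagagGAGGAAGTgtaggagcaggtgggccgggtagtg
Trem2, chr17:48346367-48346400: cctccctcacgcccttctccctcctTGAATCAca
The PU.1 motif of Spp1 began 113 bases and the AP-1 motif of Trem2 9 bases before a start of the gene in RefSeq. For Spp1 this start lies slightly ahead of the GENCODE start given further on. Spp1 had 2 windows, and its other window held none of the motifs. CACGTG was in none of the windows of these 6 members. A match is a description of letters and no evidence of binding.

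Compared with all other cells of the same mouse, 7 of the 10 members were higher in Myeloid cells in 4 of 4 mice, as were 29.2% of all 5385 genes tested in Myeloid cells. These were Gpnmb, Apoe, Trem2, Lpl, Lgals3, Thbs1 and Ctsb. Spp1 and Cd9 were higher in 3 mice, and Fabp5 was lower in every mouse. As the members were named with this pattern in view, the count describes them and supports nothing.

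Trem2 (ENSMUSG00000023992, chr17:48346401-48354147) was the member most confined to Myeloid cells. It stood at 372 and 174 CPM in the P43 mice and at 163 and 438 CPM in the P70 mice. All other cells of mice 4 to 7 together held 0, 3, 44 and 6 Trem2 UMIs. In each mouse, at least 94.3% of the Trem2 UMIs lay in Myeloid cells. No other class exceeded 51.0 CPM, the value in mouse 6 of an unnamed cluster led by Elane, Prtn3 and Mpo, genes of granulocyte precursors (the Elane cluster).

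Apoe (ENSMUSG00000002985, chr7:19696109-19699188) reached 10957, 11923, 16785 and 37839 CPM in Myeloid cells of mice 4 to 7, ahead of every other class. The next class was a Dcn-led cluster of collagen-expressing stromal cells in mouse 4, with 9501 CPM from 19 cells. In mouse 6 the AC-like (astrocyte-like) tumor cells followed, with 6447 CPM. Tumor cells of the OL-like (oligodendrocyte-like) class, the largest tumor class, held no more than 193 CPM.

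Ctsb (ENSMUSG00000021939, chr14:63122462-63145923) was at 822, 980.5, 2369 and 2725 CPM in Myeloid cells. Among classes with at least 10 cells, these were the highest in all 4 mice. Plasmacytoid dendritic cells (pDC) of mouse 6 came nearest, at 1612 CPM. The pDC of mice 4 and 5, 4 cells in each, were above the Myeloid cells there, at 1335 and 1349 CPM from 30 and 40 UMIs. OL-like cells ranged from 49.6 to 83.4 CPM.

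Gpnmb (ENSMUSG00000029816, chr6:49036546-49070929) was almost absent at P43, with 1 UMI in the Myeloid cells of each P43 mouse. In the P70 mice it reached 158 and 147 CPM. Among other classes with at least 10 cells, the highest value was 72.3 CPM in AC-like cells of mouse 6, from 22 UMIs. AC-like cells of mouse 7 had 2.86 CPM.

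Lgals3 (ENSMUSG00000050335, chr14:47367751-47386160) was found in several immune classes. Myeloid cells had 1010.4, 1072, 1658 and 1108 CPM. The Elane cluster was higher, reaching 1495 CPM in mouse 4 and 2032 CPM in mouse 6. Cd209a-expressing dendritic cells (DC) followed with 625 to 754 CPM, and OL-like cells did not exceed 16.3 CPM.

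Lpl (ENSMUSG00000015568, chr8:68880491-68907448) was at 73.3, 93.3, 42.0 and 196 CPM in Myeloid cells. In mouse 4 the Elane and Dcn clusters were higher, with 701 and 227 CPM from 19 cells each. In mice 5 and 7 Myeloid cells ranked first among classes with at least 10 cells. The 3 Dcn cluster cells of mouse 5 had 288 CPM from 4 UMIs.

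Thbs1 (ENSMUSG00000040152, chr2:118111876-118127133) stood at 36.6 and 37.3 CPM in Myeloid cells at P43 and at 633 and 714 CPM at P70. In mouse 6 it was also high in neutrophils (598 CPM), the Elane cluster (450.1 CPM) and a B lineage cluster of shallow cells (920 CPM at a median of 886 UMIs). OL-like cells of mouse 6 had 8.26 CPM.

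Spp1 (ENSMUSG00000029304, chr5:104435118-104441050) had no more than 22.6% of its UMIs in Myeloid cells at P43. Mouse 4 had 1 Spp1 UMI in Myeloid cells (5.24 CPM), against 3637 CPM in the Dcn cluster, 717 CPM in neurons and 286 CPM in Rgs5-expressing mural cells. Myeloid cells of mice 5, 6 and 7 had 122, 237 and 314 CPM. The Dcn cluster of mouse 6 had 1186 CPM, above its Myeloid cells.

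Fabp5 (ENSMUSG00000027533, chr3:10012548-10016607) and Cd9 (ENSMUSG00000030342, chr6:125460266-125494791) went against the label of macrophage genes. Fabp5 had 115, 102, 316 and 660 CPM in Myeloid cells but 1457 to 2207 CPM in OL-like tumor cells, 1366 to 2519 CPM in NB-like (neuroblast-like) tumor cells and 1377 to 2925 CPM in mature oligodendrocytes (MOL). Myeloid cells held no more than 10.4% of the Fabp5 UMIs of any mouse. The Fabp5 sequence has near-identical copies elsewhere in the mouse genome, and reads shared with them may be missing from its count. Cd9 was between 197 and 361 CPM in Myeloid cells, against 1303 and 1475 CPM in oligodendrocyte precursor cells (OPC) and 197 to 300 CPM in OL-like cells.

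**Figure D1:**
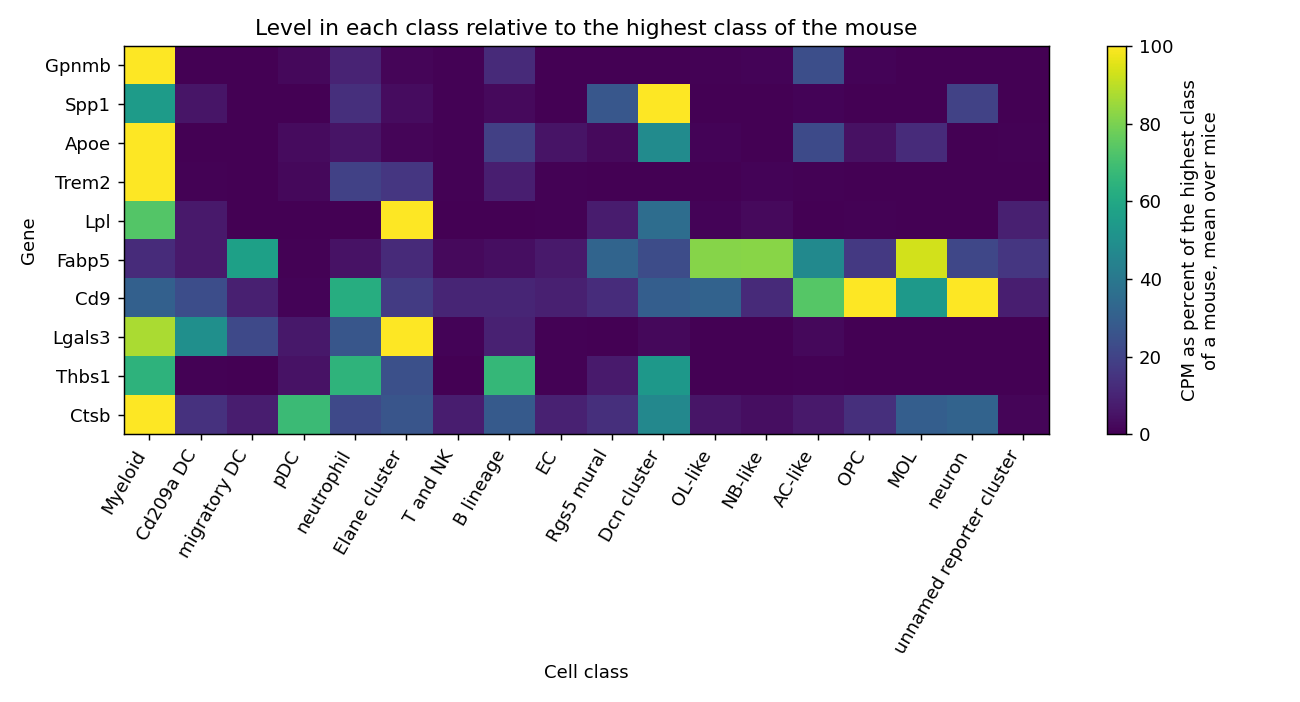
Level of the 10 members (rows) in each cell class (columns), as CPM in percent of the class with the highest CPM in the same mouse, averaged over the mice with at least 10 cells of the class; classes rest on 1 to 4 mice. Gpnmb, Apoe, Trem2 and Ctsb are at 100% in Myeloid cells, whereas Fabp5 and Cd9 are at 12.3% and 30.5% there.

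The profiles across classes gave each member other genes with a like pattern, as a description over 44 sums of UMIs per class and mouse that share libraries and depth. Trem2 ran closest to C1qc, a complement component of macrophages (Pearson r = 0.94 of log2(CPM + 10)), and Lgals3 to Aif1, a macrophage calcium-binding protein (r = 0.95). Thbs1 was most like Clec4e (r = 0.88) and Clec4d (r = 0.88), lectin receptors of inflammatory monocytes, and Gpnmb like F10 (r = 0.83), which encodes coagulation factor X. Apoe was most like Abca1, which exports cholesterol to lipoproteins (r = 0.77), and Spp1 like Nr1h3, the oxysterol receptor LXR alpha (r = 0.79). Ctsb was most like Psap (r = 0.84) and Grn (r = 0.81), both lysosomal, and Lpl like Fcrls (r = 0.83). Fabp5 was most like Fscn1 (r = 0.80), a marker of mature dendritic cells, and Cd9 like Dbi (r = 0.75).

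With age, 8 of the 10 members were higher in Myeloid cells of both P70 mice than of both P43 mice, and 17.3% of the 5385 genes tested were. None was lower in both P70 mice, as 24.6% of all genes were. The members were named for this contrast, so nothing is read from the difference. Trem2 and Lpl overlapped between the ages. Some members also differed with age outside Myeloid cells. In Rgs5-expressing mural cells, Fabp5 (16.3-fold by the means of the mice), Thbs1 (10.8-fold, 8 UMIs at P43), Cd9 (4.21-fold) and Apoe (2.22-fold) were higher in both P70 mice. Spp1 was lower there in both. Lpl had 12.7 and 9.40 CPM there at P43, 9.35 CPM in mouse 6 and 0 UMIs in mouse 7. As 3 UMIs would be 33.9 CPM in mouse 7, no direction is given for Lpl. In Cd209a DC, Fabp5 (6.71-fold) was higher and Cd9 lower in both P70 mice. Apoe (6.85-fold, 7 UMIs at P43) was higher too, but with 3 UMIs in mouse 7. Spp1 and Lpl had 0 UMIs in mouse 7, where 3 UMIs would be 21.1 CPM. This is above their lower P43 values of 11.5 and 17.3 CPM, so no direction is given for them. The share of all genes was not computed in these 2 classes, so nothing is read from the directions. Why the classes differed with age was not tested. Each mouse is 1 library and no preparation batch is stated, so that age and batch cannot be told apart.

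Gpnmb had 2 UMIs at P43, 1 in each mouse, against 755 UMIs at P70, 698 of them in mouse 6. The ratio of pooled levels was 52.8, with a 95% counting interval of 14.6 to 437 that leaves out differences between mice. Thbs1 had 25 UMIs at P43 and 3081 at P70, a ratio of pooled levels of 17.2, which lies within the interval of Gpnmb, and an 18.2-fold higher mean of the mice at P70. In both genes the P70 mice lay close together and far above the P43 mice.

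By the means of the mice, Fabp5 was 4.50-fold and Spp1 4.33-fold higher at P70. The Spp1 value at P43 is the mean of 5.24 and 122 CPM, and without mouse 4 or mouse 5 the log2 ratio ran from 1.17 to 5.72. Ctsb was 2.83-fold higher and Apoe 2.39-fold, the latter set by mouse 7 more than by mouse 6. Cd9 and Lgals3 were 1.54-fold and 1.33-fold higher, and the lower P70 mouse lay only a little above the higher P43 mouse for both (265 against 209 CPM for Cd9, 1108 against 1072 CPM for Lgals3). When the CPM of single cells was averaged instead of summing UMIs, 7 of the 10 members were higher in both P70 mice. The share of all genes was not computed for this measure, so nothing is read from the count.

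Trem2 and Lpl did not follow. Mean Trem2 was 273 CPM at P43 and 301 CPM at P70, with mouse 4 and mouse 7 high and mouse 5 and mouse 6 low. Mean Lpl was 83.3 and 119 CPM, mouse 6 being lowest and mouse 7 highest of the 4. Without mouse 7 the log2 ratio of P70 over P43 was -0.74 for Trem2 and -0.99 for Lpl.

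**Figure D2:**
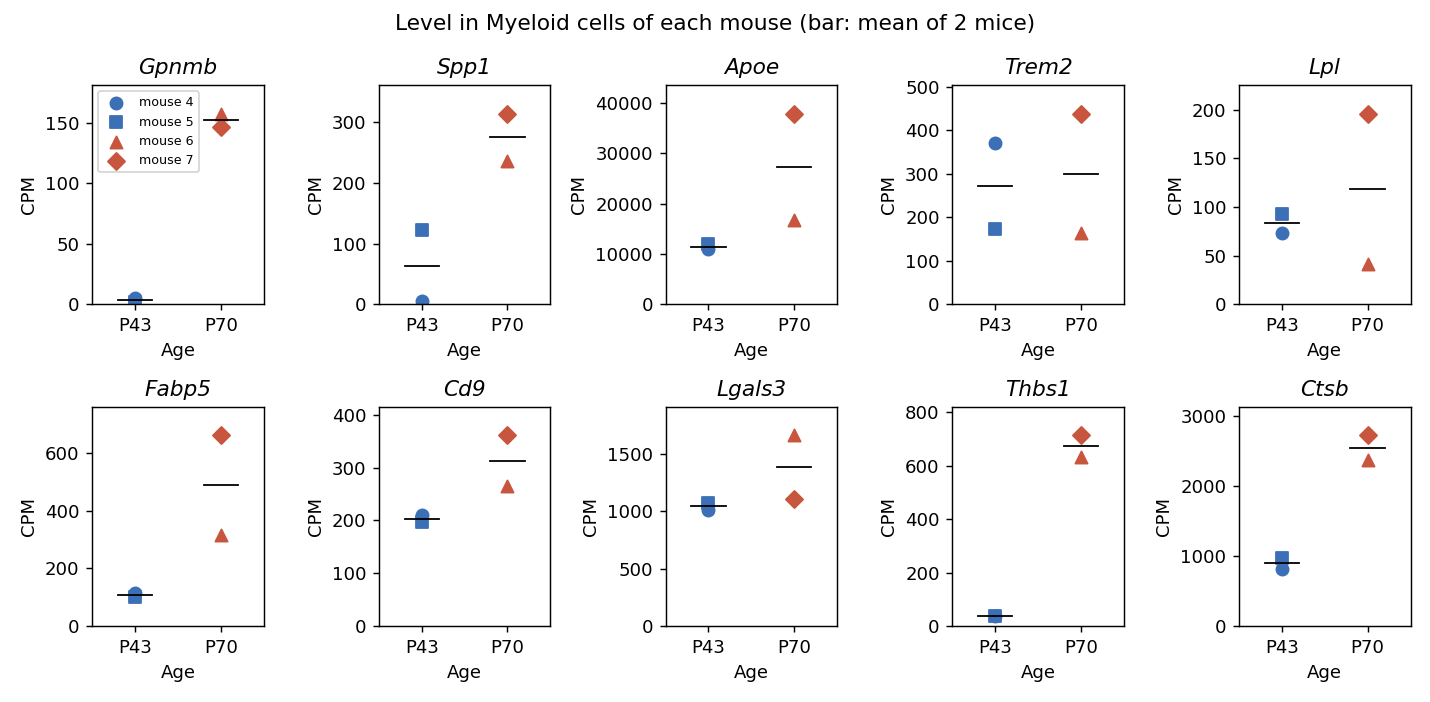
CPM of each member in Myeloid cells (vertical axis, from 0) by age (horizontal axis), 1 point per mouse, with a bar at the mean of the 2 mice of an age. For 8 members both P70 mice lie above both P43 mice, while Trem2 and Lpl overlap.

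Genes of the other classes' marker lists were also counted in Myeloid cells, and their part in the differences with age was not tested. Conventional DC markers, 9 genes, summed to 5999.5 and 8677 CPM at P43 and to 7707 and 6303 CPM at P70, and pDC markers to 1529 and 989 CPM against 1640 and 1276 CPM, so that the ages overlapped in both. Markers of the oligodendrocyte lineage, 9 genes, summed to 272 and 155 CPM in Myeloid cells at P43 and to 63.0 and 242 CPM at P70. Of the 10 mural markers, 7 were at 0 in each P43 mouse, with sums of 2.58 to 26.2 CPM over the 4 mice, and EC markers reached at most 199 CPM. Migratory DC were among several classes with more Fabp5 than Myeloid cells. Their markers did move in Myeloid cells, with 811 and 199 CPM at P43 and 2366 and 1451 CPM at P70. Of these 9 genes, however, 4, 4, 0 and 6 were at 0 in mice 4 to 7, so the sum of mouse 7 rests on few genes. Neutrophil markers stood at 366 and 64.3 CPM at P43 against 446 and 43.8 CPM at P70. In mice 4 to 7, 4, 0, 13 and 2 Myeloid cells were mixed, with at least 3 genes of another class's list. The lists used for this were EC, mural, T and NK, B lineage, neutrophil, neuroblast, oligodendrocyte lineage and astrocyte. Cells were not taken out for DC or pDC genes. Without the mixed cells the same number of members, 8, was higher in both P70 mice. The share of all genes was not computed without the mixed cells, so nothing is read from this count.

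Depth per cell differed between mice, so shares of cells were taken after thinning each cell to 2000 UMIs and leaving out shallower ones. This left 33, 60, 751 and 90 Myeloid cells of mice 4 to 7, with 20, 3, 37 and 56 left out. Intervals are 95% exact binomial (Clopper-Pearson) and cover counting error only. As a class that should lack macrophage RNA, OL-like tumor cells were thinned alongside, with unthinned medians of 1287, 20662, 4724 and 12098 UMIs in mice 4 to 7.

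Thbs1 was detected in 6.06% (0.743 to 20.2) and 3.33% (0.406 to 11.5) of Myeloid cells at P43, against 40.2% (36.7 to 43.8) and 44.4% (34.0 to 55.3) at P70. OL-like cells had Thbs1 in no more than 3.94%. Gpnmb was found in 0 of 33 cells of mouse 4, which allows a share of cells with a UMI of up to 9.09% if 3 cells are taken as the limit (10.6% by the exact interval), and in 1.67% of mouse 5, against 8.39% (6.51 to 10.6) and 12.2% (6.26 to 20.8) at P70. For Gpnmb the interval of mouse 5 (0.0422 to 8.94) overlaps those of both P70 mice, as does that of mouse 4. With 33 cells of mouse 4 and 60 of mouse 5, both P43 intervals include the 8.39% of mouse 6 and end below the 12.2% of mouse 7.

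Fabp5 was in 9.09% and 13.3% of Myeloid cells at P43 and in 20.9% and 38.9% at P70, and in 89.1% to 97.8% of OL-like cells. Spp1 was in 3.03%, 5%, 8.92% and 21.1% of Myeloid cells, while OL-like cells did not exceed 0.384%. Trem2 was in 27.3%, 30%, 16.4% and 38.9% of Myeloid cells, and its OL-like share did not exceed 0.303%. Ctsb and Apoe were seen in most Myeloid cells of all mice, Ctsb in 72.7% to 92.4% and Apoe in 71.7% to 97.8%. For comparison, OL-like cells had Apoe in 7.54% to 21.8% and Ctsb in 8.89% to 14.0%.

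At this depth, a Myeloid cell carried RNA of 2.82 and 2.90 members on average at P43 and of 3.88 and 4.51 at P70. Cells with 5 or more members made up 0 of 33 cells in mouse 4 and 10.0%, 26.0% and 44.4% of the cells in mice 5 to 7. Among the 60, 751 and 90 cells of mice 5, 6 and 7, the correlation r of Gpnmb with Fabp5 was 0.71, 0.46 and 0.33, that of Apoe with Ctsb 0.47, 0.37 and 0.51, and that of Spp1 with Lpl -0.07, 0.25 and 0.60. The value of Gpnmb in mouse 5 rests on 1 UMI. These pairs are examples and do not stand for all. In the same mice Apoe with Lgals3 had r of -0.50, -0.02 and -0.03, and Trem2 with Thbs1 -0.11, -0.01 and -0.25. These correlations describe thinned counts of cells that share a library.

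At a finer resolution, 1044 of the Myeloid cells fell into a C1qa-led and a Ly6c2-led subcluster. The first was led by the complement genes C1qa, C1qb and C1qc. Of the macrophage markers examined, Ms4a7 and Mrc1 were higher there in 4 mice, Ccr2 in 2, Lyz2 in 1 and Ly6c2 in 0. Of the microglia markers examined, P2ry12 was higher there in 4 mice and Tmem119 in 3. The second was led by Ly6c2, a marker of classical monocytes, with Cxcl10 and Plac8. In mice 4 to 7 they held 21 and 32, 39 and 23, 369 and 414, and 89 and 57 cells. The subclusters were chosen after their values had been seen, so the members are described in them without a test.

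Apoe, Trem2, Spp1, Lpl and Ctsb were higher in the C1qa-led cells of 4 of 4 mice, 5 of the 10 members, as were 11.4% of all 5385 genes. Apoe stood at 22509, 17775, 26826 and 50349 CPM in C1qa-led cells of mice 4 to 7 and at 2200, 2083, 4402 and 10567 CPM in Ly6c2-led cells. Trem2 reached 862, 247, 265 and 598 CPM in the former and 0, 48.2, 37.0 and 90.2 CPM in the latter. For both genes the ranges of the subclusters did not overlap.

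Lgals3 was lower in the C1qa-led cells of every mouse, at 243, 832, 1577 and 872 CPM against 1592, 1565, 1763 and 1623 CPM. It was the only member lower in all 4 mice, which 19.7% of all genes were. Thbs1 at P70 was higher in Ly6c2-led cells, with 890.2 and 1369 CPM against 427 and 414 CPM, and in the P43 mice it went in opposite directions on few UMIs. Gpnmb at P70 was higher in C1qa-led cells, with 260.1 and 173 CPM against 31.4 and 90.2 CPM. Thbs1 and Gpnmb thus had their higher level at P70 in different subclusters.

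Both subclusters showed the difference with age. In C1qa-led cells 7 of the 10 members were higher in both P70 mice, as were 20.1% of all genes, and in Ly6c2-led cells also 7, where 17.5% of all genes were. Trem2 and Lpl overlapped in both, Cd9 in the C1qa-led and Fabp5 in the Ly6c2-led cells. Ctsb, for example, was at 850 and 1085 CPM in C1qa-led cells at P43 and at 2849 and 3245 CPM at P70. Mrc1, the mannose receptor of border-associated and other resident macrophages, differed the other way in C1qa-led cells, with 813 and 487 CPM at P43 and 15.5 and 33.8 CPM at P70. Ccr2, the monocyte chemokine receptor, was at 1020 and 1111 CPM in these cells at P43 and at 297 and 226 CPM at P70. Ms4a7 was higher in them at P70, with 918 and 778 CPM against 121 and 178 CPM at P43. Lyz2 overlapped, with 12529 and 8621 CPM at P43 and 7363 and 11198 CPM at P70.

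**Figure D3:**
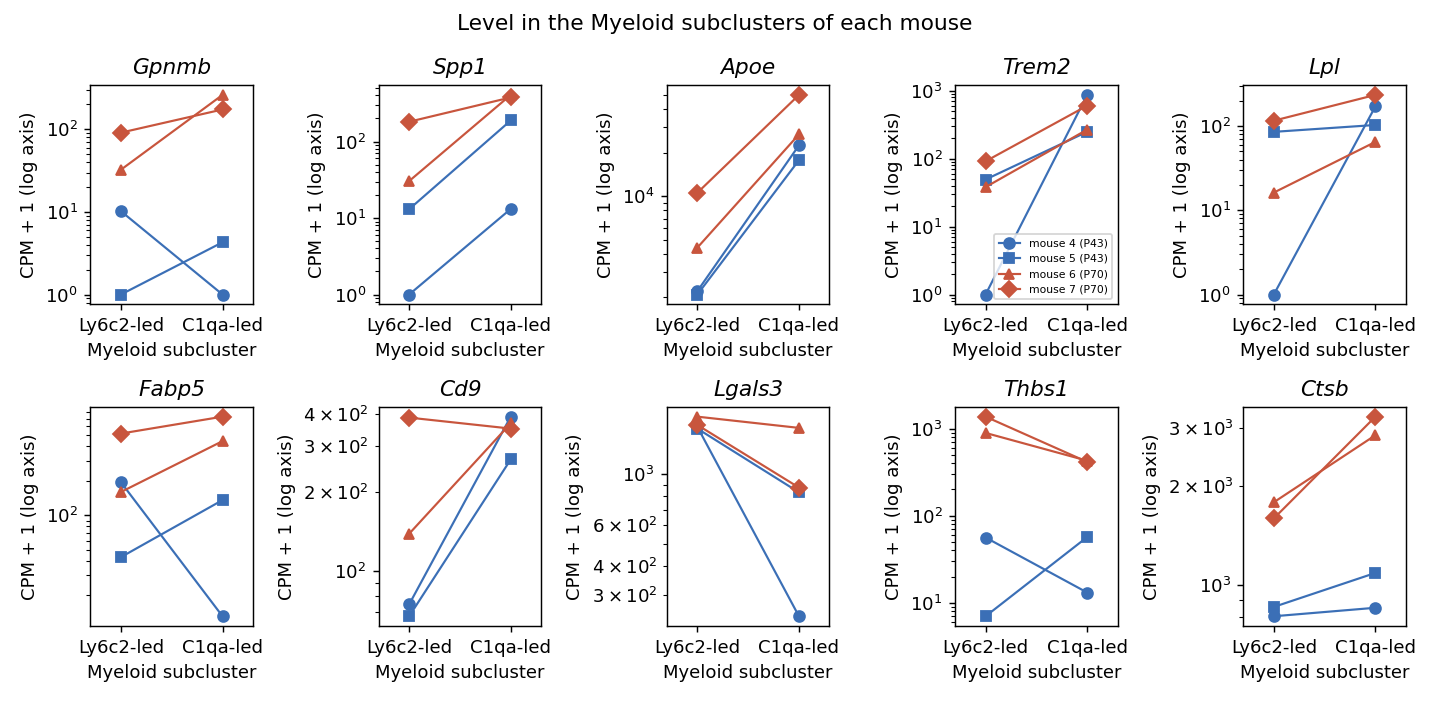
CPM + 1 of each member (log axis) in the Ly6c2-led and the C1qa-led Myeloid subcluster, with 1 line per mouse, blue for P43 and red for P70. Lines of Apoe, Trem2, Spp1, Lpl and Ctsb rise to the C1qa-led side in all 4 mice, and those of Lgals3 fall.

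Of the other genes of these pathways, 4 lists were examined, which have 106 genes in all, 82 of them tested. No gene of any list passed edgeR's quasi-likelihood test between P70 and P43 in Myeloid cells at an adjusted p of 0.05. Over all 5385 genes, 0.0557% were called higher and 0.0371% lower. At an unadjusted edgeR p under 0.05, 19 of the 82 genes were higher and 3 lower. Of all 5385 genes, 586 were under that limit in either direction. These were not divided by direction, so the 19 and 3 have no share of all genes beside them. DESeq2 gave an adjusted p for 56 of the 82 and called 5 higher and none lower, where it called 1.82% of 2357 genes higher and 1.32% lower. The 5 were Lgmn, Fth1, Plin2, Cd63 and Ccl4, none of which passed in edgeR.

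The counts of genes whose ages did not overlap are to be read against the 17.3% of all genes higher and 24.6% lower given above. The lists were chosen with earlier results of these libraries known, so nothing is read from a count above these shares. Of 30 lysosomal genes tested, 16 were higher in both P70 mice and 2 lower, with a median log2 fold change of 0.58 against 0.02 over all genes. By mean level the leading ones were Ctss, Psap and Ctsz. Ctss, the macrophage cathepsin S, was at 3120 and 3227 CPM at P43 and at 4529 and 4465 CPM at P70 (log2 fold change 0.57 ± 0.16 SE, edgeR adjusted p = 0.25). Psap, the precursor of the saposins that help to degrade sphingolipids, had 2309 and 3045 CPM against 4427 and 4029 CPM (0.73 ± 0.20, edgeR adjusted p = 0.24). Ctsz had 963 and 877 CPM against 1759 and 1701 CPM (0.98 ± 0.20, edgeR adjusted p = 0.13). In these 3 genes the ages did not overlap, but none passed the test.

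Of 14 tested genes known from disease-associated microglia, 7 were higher in both P70 mice and 1 lower, with a median log2 fold change of 0.69. Cd63 and Cd68, both among the higher ones, are also in the lysosomal list. Fth1, the heavy chain of the iron store ferritin, was at 6308 and 7862 CPM at P43 and at 19615 and 16882 CPM at P70 (1.43 ± 0.17, edgeR adjusted p = 0.053). Tyrobp, the signalling adaptor of TREM2, went from 2413 and 2465 CPM to 2616 and 3256 CPM (0.33 ± 0.19, edgeR adjusted p = 0.60). Cd52 overlapped, with 2283 and 2807 CPM at P43 and 2878 and 2085 CPM at P70.

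Of 19 tested genes of lipid uptake, storage and efflux, 5 were higher (26.3%) and 6 lower in both P70 mice, near the shares of all genes, and the median log2 fold change was 0.31. Plin2, which coats lipid droplets, had 147 and 116 CPM at P43 and 421 and 438 CPM at P70 (1.80 ± 0.28, edgeR adjusted p = 0.093). Npc2, which moves cholesterol out of lysosomes, had 1497 and 1329 CPM against 2380 and 1696 CPM (0.60 ± 0.23, edgeR adjusted p = 0.41). Pltp, a phospholipid transfer protein, was lower, at 283 and 311 CPM against 234 and 119 CPM (-0.65 ± 0.36, edgeR adjusted p = 0.60).

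Of 24 tested receptors and partners of the members, 5 were higher (20.8%) and 6 lower in both P70 mice, also near the shares of all genes, with a median of -0.02. Besides Tyrobp, the leading genes were Spi1, which encodes PU.1, at 555, 570.0, 568 and 410 CPM in mice 4 to 7, and Cd47, a receptor of thrombospondin-1, at 529, 410, 433 and 219 CPM. Both overlapped between ages. The fit without mouse 6 has mouse 7 as its only P70 library, so it holds no spread between P70 mice. Its calls are given as a description next, and nothing is read from them. Without mouse 6, which has most Myeloid cells, 12 of the pathway genes passed the test as higher and 1 as lower, where 1.81% of 5848 genes were called higher and 2.51% lower.

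Outside Myeloid cells, members were tested between vessel cells. Both vessel classes belong to the other cells with which Myeloid cells were compared in choosing the members, but the contrast between them was not used for it. UMIs were summed over mural cells (Rgs5 mural cells and the Dcn cluster) and over endothelial cells (EC) of each mouse and compared within mice by edgeR. The filter on low counts left 8 members and 10397 genes, of which 15.6% were called higher in mural cells and 15.0% lower. Spp1, Thbs1 and Lpl passed it only through the mural cells, so the members that passed are not counted, and the fit without this filter is given too. In that fit all 10 members were tested, 4 were higher in mural cells and none lower, and 11.9% of 15011 genes were higher and 11.5% lower. Gpnmb and Trem2 were tested only there, with 0 UMIs of either in mural cells of any mouse.

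Spp1 was the clearest, at 399, 183, 271 and 161 CPM in mural cells of mice 4 to 7 and at 3.11, 0, 4.16 and 0 CPM in EC. It was 6.90 ± 0.45 (SE) higher on the log2 scale (edgeR adjusted p = 9.0e-06, without the filter 1.1e-11), and all 4 mice showed it. Without the Dcn cluster, Rgs5 mural cells alone had 286, 97.1, 34.3 and 56.4 CPM.

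Thbs1 had 13.8, 3.09, 89.9 and 32.1 CPM in mural cells and 0, 0, 16.6 and 0 CPM in EC (2.82 ± 0.53, edgeR adjusted p = 0.0036, without the filter 0.00011). Lpl was at 19.9, 13.4, 11.6 and 0 CPM in mural cells and at 2.07, 1.02, 0.832 and 0 CPM in EC (3.32 ± 0.59, edgeR adjusted p = 0.0037, without the filter 0.00095). The mural values of mouse 7 rest on few cells, with 3 UMIs of Thbs1 and 0 of Lpl. Fitted changes of genes at 0 in several libraries depend on the prior count.

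Fabp5 was at 147, 41.2, 1346 and 1210 CPM in mural cells and at 49.8, 16.8, 42.4 and 629 CPM in EC (2.06 ± 0.64, edgeR adjusted p = 0.037). Mural cells were higher in 4 of 4 mice. Without mouse 4 or without mouse 7 the call was lost (adjusted p = 0.067 in both fits). In Rgs5 mural cells alone it was 134 and 41.8 CPM at P43 and 1598 and 1276 CPM at P70.

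Apoe (-0.55 ± 0.30, edgeR adjusted p = 0.21), Cd9 (0.37 ± 0.24, edgeR adjusted p = 0.29), Lgals3 (-0.12 ± 0.66, edgeR adjusted p = 0.93) and Ctsb (0.58 ± 0.23, edgeR adjusted p = 0.096) did not pass the test. Without the mouse as a block only Spp1 of the 6 members tested in that fit was called higher. Without the Dcn cluster 3 were higher and 1, Apoe, was lower (edgeR adjusted p = 0.047), while Lpl no longer passed the filter. As the filter let Spp1 and Thbs1 in only through the mural cells, these counts are not read.

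Between dendritic cells, migratory DC (which carry Ccr7 and antigen to lymph nodes) were compared with Cd209a DC within mice 4, 6 and 7, as mouse 5 had fewer than 10 migratory DC. Of 5 members tested, 1 was higher and 1 lower in migratory DC, against 7.95% of 2994 genes higher and 4.61% lower. Fabp5 was at 276, 2105 and 1599 CPM in migratory DC and at 45.9, 230.4 and 330.0 CPM in Cd209a DC (log2 fold change 2.72 ± 0.34, edgeR adjusted p = 0.00067), higher in 3 of 3 mice. Cd9 was at 61.3, 27.1 and 124 CPM against 224, 140 and 169 CPM (-1.73 ± 0.43, edgeR adjusted p = 0.021), lower in these 3 mice. The few migratory DC of mouse 5 went the other way for Cd9, with 384 CPM from 26 UMIs against 217 CPM, and the same way for Fabp5, with 5184 against 37.7 CPM.

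Lgals3 (-1.12 ± 0.48, edgeR adjusted p = 0.15), Ctsb (-0.49 ± 0.38, edgeR adjusted p = 0.48) and Apoe (0.40 ± 0.51, edgeR adjusted p = 0.69) did not differ beyond the threshold. The Cd9 call was lost without mouse 6 (adjusted p = 0.35), without mouse 7 (adjusted p = 0.0501) and with DESeq2 (adjusted p = 0.091), and without the mouse as a block neither member was called.

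**Figure D4:**
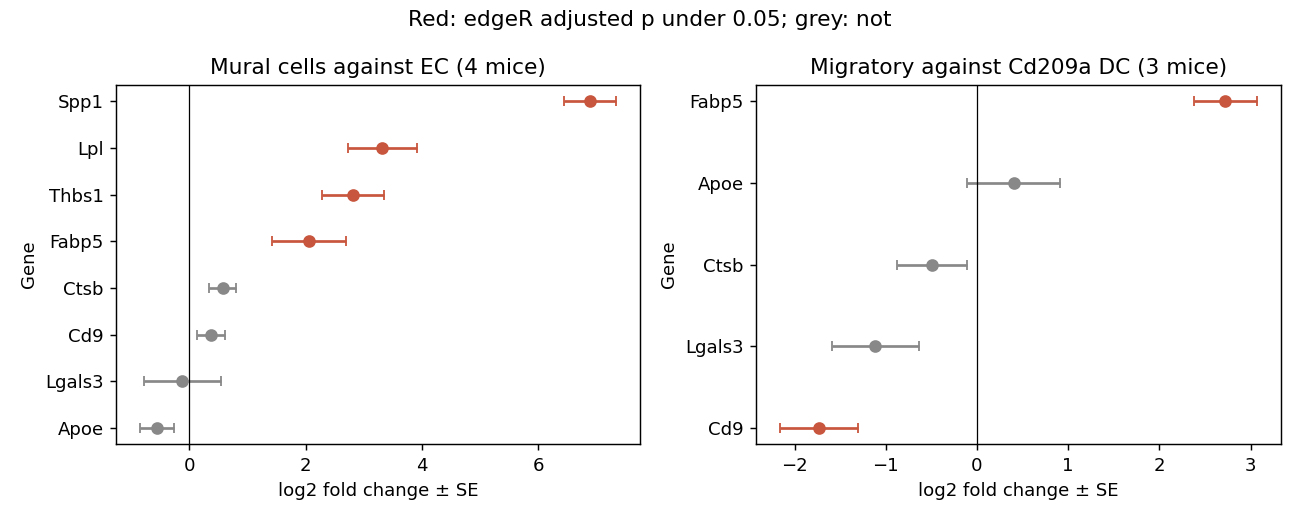
log2 fold change with its SE (horizontal axis) of the members tested in mural cells against EC (left, 4 mice) and in migratory against Cd209a DC (right, 3 mice), from edgeR, red where the adjusted p is under 0.05. Spp1, Lpl, Thbs1 and Fabp5 lie to the right for mural cells, and Fabp5 and Cd9 to opposite sides for migratory DC. The fits shown use the filter on low counts, which Spp1, Lpl and Thbs1 passed only through the mural cells, so these calls are not counted.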

How the data were processed

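The deposited values are raw UMI counts per gene and cell barcode, which the authors made with Cell Ranger 6.0.2 from reads aligned to mm10 extended by human MYCN and FLUC; no normalization is included. Libraries of later time points were not analysed here. The methods name single-index and the labels dual-index libraries. The members and all lists were chosen with earlier results of these data known.

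Kept cells had at least 200 genes, under 25% mitochondrial UMIs and no more than 40000 UMIs; no doublet caller was run beyond this limit. Seurat 5.3.0 (R 4.3.3) integrated the mice by anchors on 2000 variable genes without the members, with 30 principal components and resolution 0.5 (1.0 for DC and Myeloid subclusters). Classes with at least 10 cells in a mouse were used. A cluster took a name from a marker list if at least 3 of its genes were raised 2-fold and, outside tumor clusters, 1 of them was among its 10 leading genes or 6 were raised; shallow clusters with none among the leading genes stayed unnamed, and clusters with 500 CPM of reporter RNA were taken as tumor cells.

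UMI counts summed per mouse and class were tested by edgeR 4.0.16 (TMM, filterByExpr, quasi-likelihood test, Benjamini-Hochberg limit 0.05), on all genes that passed, with the mouse as a block for comparisons within mice, since both sums come from the same animal. Tests were checked on simulated data. Pathway genes named are up to 4 per list with the largest change among those called or, with none called, the 3 with the highest mean CPM in Myeloid cells. DESeq2 1.42.0 was an alternative. A count of 0 was taken to allow 3 counts. Gene positions are from GENCODE vM21 (GRCm38) and promoters from RefSeq (GRCm38.p6). Alternatives were no TMM, no filter on genes, other cell limits, resolution and clustering inputs, no integration, other thinning, no block and each mouse left out.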

Additional observations from a re-analysis of the deposited data

How the results depend on the processing

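Of the pathway genes, 0 were called between ages in Myeloid cells. This count became 13 without a filter on genes, 5 with DESeq2, 1 with a limit of 60000 UMIs and 3 with mitochondrial shares under 10%. It was 1 at resolution 1.0, 2 with the members kept among the variable genes, 1 without integration and, chosen after seeing the data, 2 without mixed cells. Of these settings, the share of all genes called is given above for DESeq2 only, so the other counts cannot be set against one. Leaving out 1 mouse leaves 1 library at an age, without a spread between mice at that age. Calls of those fits are therefore not read. Those without mouse 6 are given above as a description only, and those of the other fits are not given. Between mural cells and EC, 4 of the 10 members were called higher without the filter on genes, as were 11.9% of 15011 genes. With the filter, Spp1, Thbs1 and Lpl entered only through the mural cells, so counts of members called there are not read. Without the replicate block, that is without pairing within mice, Spp1 alone was still called. Ctsb was added without mouse 6 (edgeR adjusted p = 0.020) or mouse 7. Lgals3 turned to 0.14 without mouse 4 and was -0.085 without mouse 7. Between DC, 2 members were called, 0 without the replicate block, 1 with DESeq2 and 1 to 3 when 1 mouse was left out. Lgals3 was added without mouse 4. The share of all genes called between DC is given above for the main fit only. Members tested also varied, with 5 in the main fit and 4 without the block. The counts of the other settings are therefore not read. Apoe turned to -0.74 without integration, where mice 6 and 7 alone could be used. Leaving out 1 mouse, 8 to 10 members were higher in P70 Myeloid cells, all 10 without mouse 6. This count cannot fall when a mouse is left out, and the share of all genes was not computed, so nothing is read from it. Leaving out 1 mouse, the log2 ratio of Trem2 ran from -0.74 (without mouse 7) to 0.79 and was -0.31 without mouse 5, and that of Lpl ran from -0.99 (without mouse 7) to 1.23. In 8 members a higher share of thinned Myeloid cells carried a UMI at both P70 mice, and in 5 without thinning. The members were named for this contrast and the share of all genes was not computed, so nothing is read from either count. The cause of these changes was not tested. The comparison of microglia-like with macrophage-like cells had too few cells to be run. Depth limits Gpnmb at P43 and Spp1 in mouse 4, where 1 UMI decides a value.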
